A study of Homo sapiens with 13 samples.

Results

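Translation initiation factors (eIF) and elongation factors (eEF) are the proteins that start and carry on protein synthesis. The genes described here were the protein-coding genes whose symbol starts with EIF or EEF followed by a number, which gave 68 of the 59204 human gene IDs in the tables. The other 161 IDs with such a symbol, pseudogenes and noncoding transcripts, were left out. The symbols also take in regulators of these factors, such as the kinases that phosphorylate eIF2 and the enzymes that methylate eEF1A and eEF2.

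The libraries came from K562, a widely used line of human chronic myeloid leukaemia cells. All 12 chase libraries were from cells labelled with 30 µM 4-thiouridine (4sU), a uridine analogue built into new RNA, for 12 h with fresh medium every 3 h. The cells were then moved to 3 mM uridine and collected 0, 1, 2, 4, 8 or 12 h later, with 2 replicates at each of the 6 times. A single library was from K562 cells that received no 4sU, and it has no replicate. In SLAM-seq, alkylation makes 4sU read as C, so that each gene has a count of all its reads and a count of the reads with the label, which the authors call nascent. The labelled share is the second as a percentage of the first. Nothing in the labels says that replicates were separate cultures, and p-values then rest on a spread between libraries that may be technical.

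Initiation begins when eIF1, eIF1A, eIF3, eIF5 and eIF2 with the initiator tRNA load the small ribosomal subunit, and the eIF4 proteins bring it to the cap of an mRNA. eIF2B recharges eIF2 with GTP, and kinases that phosphorylate eIF2 block this step under stress. During elongation eEF1A delivers the charged tRNAs and eEF2 moves the ribosome along. Several of these mRNAs, eEF1A among them, start with a terminal oligopyrimidine (TOP) tract, a run of C and T (U in RNA) that begins with a C, through which mTOR controls their translation.

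Total counts ran from 9004529 to 17425584 per library, and a gene with no count could have up to 0.172 CPM (counts scaled to the library total) in the deepest library and up to 0.333 CPM in the shallowest. The 10 K562 and erythroid markers were all over 1 CPM, with a summed level of 4450 to 13372 CPM, while 3 of 12 markers of other blood cells were, with 26.0 to 53.7 CPM. By composition of the Drosophila spike-in RNA, which was never in the cells, the libraries formed 2 sides (first component of 648 spike-in genes, 66.2% of their variance). All libraries up to 2 h lay on the first side together with replicate 1 of 4 h. All later libraries, replicate 2 of 4 h and the library without 4sU lay on the second. Only the 4 h time holds both sides, so that elsewhere the side and the time cannot be told apart. For total RNA, the adjustment for the side rests on the 2 libraries of 4 h alone, 1 on each side. For slopes and for totals over the chase, calls lost on this adjustment are named beside the results. In bulk RNA, fewer cells and less RNA per cell cannot be told apart either.

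In time order, the 68 genes took 2.70, 2.64, 2.59, 2.60, 2.37 and 2.29% of all counts in replicate 1 and 2.65, 2.63, 2.63, 2.46, 2.30 and 2.27% in replicate 2, and 2.58% without 4sU. EEF1A1 alone held 37.6% of their counts, and EEF1A1, EEF2 and EEF1G together held 53.0%. Of the counts of the 68 genes, 34.0, 34.1, 34.3, 30.1, 23.7 and 16.7% were labelled in replicate 1 and 34.3, 33.5, 33.2, 31.1, 23.7 and 15.8% in replicate 2. Over all genes the labelled share was 35.9 and 36.1% at 0 h and 10.9 and 10.6% at 12 h. The pooled counts of the eIF and eEF genes thus began slightly lower and ended higher. EEF1A1, with 23.9 and 23.7% labelled at 0 h, weighs heavily in that pool. The median share of single genes tested for decay was 49.1% at 0 h, against 57.9% for all, and 10.3% at 12 h, against 5.86%. Without 4sU, 3 of their 448890 counts were labelled (95% Wilson interval 0.000227 to 0.00197%, which covers counting error only).

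The bases around the annotated start site are printed for genes on which the results below turn, 5 with and 4 without a pyrimidine tract. Each window holds 15 bases before and 15 bases after the RefSeq start (GRCh38.p14) on the gene's own strand, and capitals mark a tract of a C followed by at least 4 further C or T, with its first C within 5 bases of the start.
EEF1A1: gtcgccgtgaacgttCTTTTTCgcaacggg
EEF2: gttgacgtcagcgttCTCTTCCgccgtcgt
EIF3K: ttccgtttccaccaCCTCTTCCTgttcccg
EIF4B: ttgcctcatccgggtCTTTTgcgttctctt
EIF4A2: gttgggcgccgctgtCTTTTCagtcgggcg
EEF1G: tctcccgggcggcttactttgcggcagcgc
EIF5: gcggcggcgttgttcagtcagagcgagaac
EIF1B: tcggccattttgtgcgagaagccgcagcgc
EIF1AD: cgagacagcgccggaagtacggttttcgga
These lie at chr6:73521018-73521047 (minus strand) for EEF1A1, chr19:3985449-3985478 (minus) for EEF2, chr19:38619173-38619202 (plus) for EIF3K, chr12:53006441-53006470 (plus) for EIF4B and chr3:186783562-186783591 (plus) for EIF4A2. Those without the tract lie at chr11:62573877-62573906 (minus) for EEF1G, chr14:103334222-103334251 (plus) for EIF5, chr3:40309692-40309721 (plus) for EIF1B and chr11:66002143-66002172 (minus) for EIF1AD. Of the elongation factors with a RefSeq window, EEF1A1 and EEF2 have the tract, while EEF1B2, EEF1E1 and EEF1G do not, although EEF1B2 and EEF1G are counted among the known TOP mRNAs. EIF4A2, whose labelled RNA was lost fast, has one.

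The loss of labelled RNA over the chase was compared with that of the median gene. Labelled RNA of 40 of the 58 tested genes (69%) fell slower than the median, against 36.3% of all 9652 genes tested, and that of 6 (10.3%) fell faster, against 36% of all. The 12 others did not pass the test (edgeR quasi-likelihood, Benjamini-Hochberg adjusted p under 0.05 over all genes). All 46 genes called had the same direction in both replicate series. These series are parts of the same 12 libraries that gave the calls, so this is no separate support. The median apparent half-life was 6.36 h ± 0.0266 (SD of the 2 replicate series) for these genes and 4.30 h for all genes. It came from an exponential fit to the labelled counts scaled to the total library. This SD covers only the split into 2 series. The choice of scale or window moved the median by more, as given below. The middle of the range, from the lower to the upper quartile, was 4.86 to 10.2 h for the eIF and eEF genes and 3.03 to 6.58 h for all genes. Adjusted for the spike-in side, 32 of the 40 still fell slower, and of the faster genes EIF1AD, EIF1B and EIF4A2 still passed. Of all 9652 genes, 2398 were slower and 2090 faster with that adjustment. Over 0 to 4 h alone, 26 genes fell slower, and the share of all genes called in that window is not given here.

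Since the totals of many of these genes moved over the chase, the loss was also scaled to each gene's own total, which follows the labelled share. On that scale 39 genes fell slower and 12 faster than the median, and the share of all genes called is not given here. The median half-life was 5.32 h, against 3.79 h for all genes. Of the 40 slower genes 34 kept their call, EEF1AKMT2, EIF2B3, EIF3B, EIF4A3 and EIF4G1 lost it and EIF5B turned to faster. EIF4A2 no longer passed (adjusted p = 0.0995), EEF2K, EIF2B2, EIF2B5, EIF3A, EIF4ENIF1 and EIF4G3 now passed as faster, and EEF1E1, EIF4A1, EIF4EBP1, EIF5 and EIF5A2 as slower. Of the 55 genes with a half-life on both scales, 10 had one over 1.5 times longer on their own total and 8 one over 1.5 times shorter. Half-lives on the own total are given below for some of these genes.

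**Figure D1:**
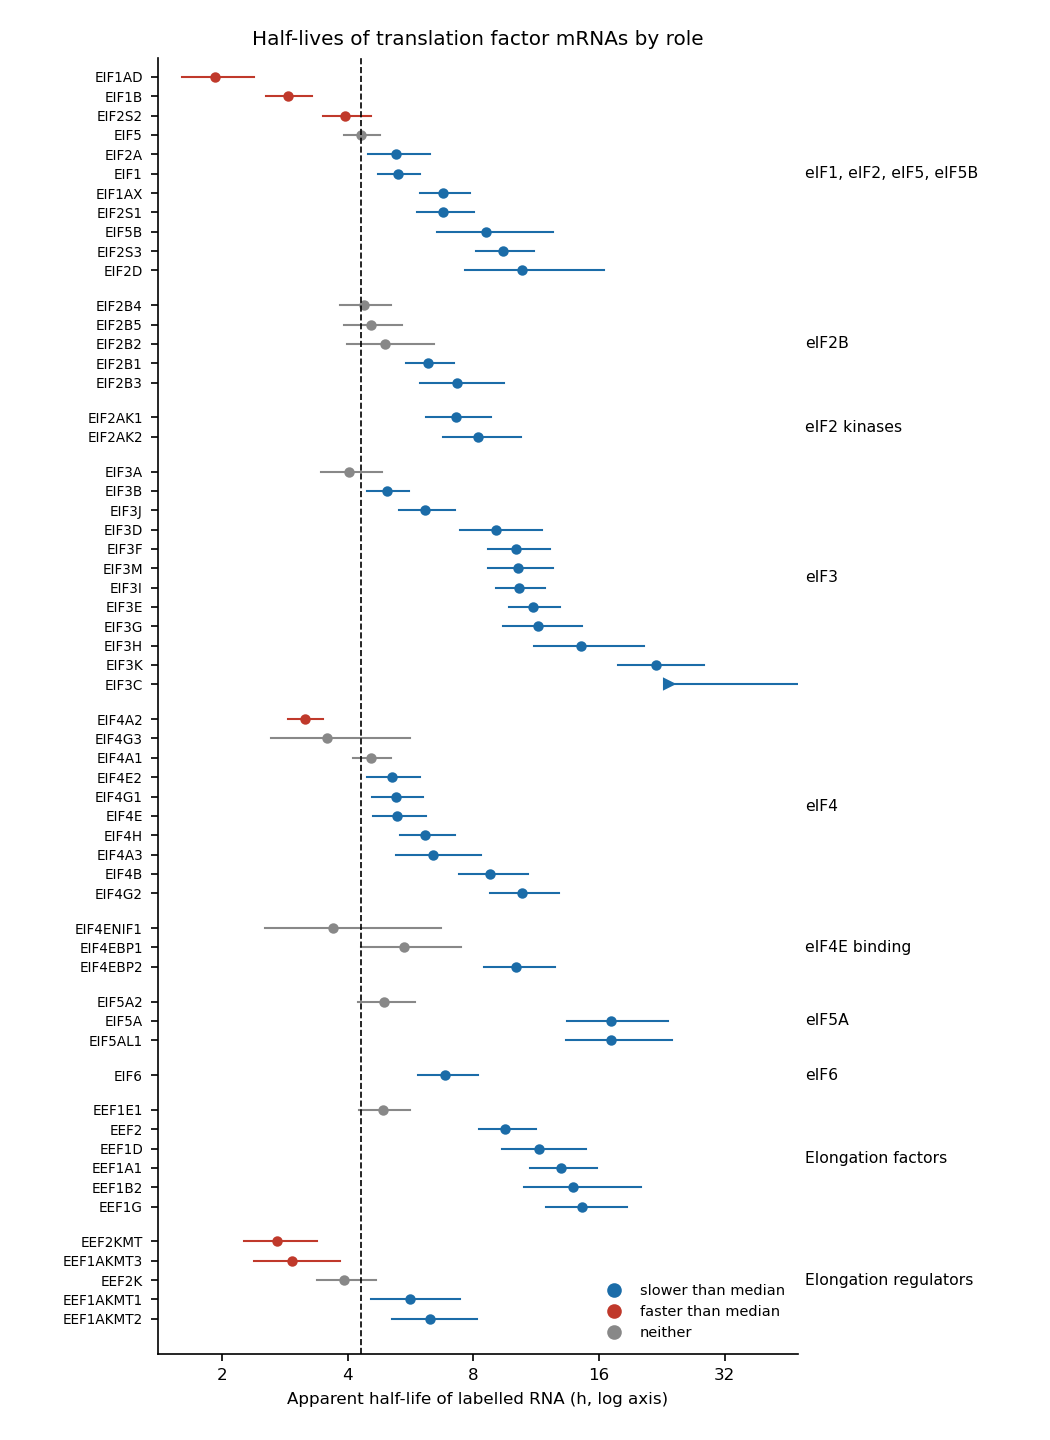
Apparent half-life of labelled RNA (h, log axis) of the 58 tested genes by role. Points are fits over 12 libraries, bars 95% intervals, the triangle marks the lower limit of EIF3C and the dashed line the median of all genes at 4.30 h. The elongation factors and most eIF3 subunits lie right of the line, and EIF1AD at 1.92 h is the shortest.

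Of the other 10 genes, EIF2S3B had no count in any library, and EIF1AY, EIF3L, EIF4E1B and the readthrough EEF1E1-BLOC1S5 had between 5 and 33 counts in all. EIF4E3 had 101 counts, EIF3CL 313, EIF2AK4 732 and EIF2AK3 755, all under the minimum of a mean of 5 CPM. EEF1A2, the form of eEF1A of muscle and neurons, had 5.56 CPM but 59 labelled counts, under the minimum of 100.

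Elongation factor mRNAs were among the longest-lived. Labelled RNA of 5 of the 6 tested, all but EEF1E1, fell slower than the median, with a median half-life of 12.2 h over the 6. EEF1A1 (chr6:73515750-73523797, minus strand, GENCODE 29) was labelled, from 0 to 12 h, at 23.9, 24.9, 26.6, 25.9, 27.1 and 23.8% in replicate 1 and at 23.7, 23.3, 24.5, 27.5, 27.9 and 21.7% in replicate 2. The share of 12 h overlapped that of 0 h, while the labelled counts themselves fell with the total, from 2870 and 2644 labelled CPM to 1559 and 1381. This gave a half-life of 12.95 h (95% interval 10.96 to 15.8) and a slope that was 0.16 ± 0.006 (SE) log2 units per hour above the median (adjusted p = 5.93e-17). On its own total the loss of EEF1A1 was too flat for a half-life.

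The subunits that reload eEF1A with GTP had half-lives of 14.6 h for EEF1G, 13.9 h for EEF1B2 and 11.5 h for EEF1D, and of 24.7, 31.6 and 17.3 h on their own totals. EEF2, the translocase, had 9.54 h (8.27 to 11.3), and its labelled share went from 34.7 and 33.1% at 0 h to 16.9 and 16.8% at 12 h. EEF1E1, which sits in the complex of aminoacyl-tRNA synthetases, had 4.85 h (4.25 to 5.64) and did not pass against the median. By the mean share at 0 h it was also the most highly labelled of the 58 genes, with 82.1 and 80.0%. By that mean EEF1D was the least, with 9.45 and 8.82%, although EIF3C had 8.55% in replicate 1.

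Regulators of elongation had a median of 3.92 h over 5 genes. Labelled RNA of EEF2KMT (2.71 h, 2.26 to 3.38) and EEF1AKMT3 (2.94 h, 2.38 to 3.84), which methylate eEF2 and eEF1A, fell faster than the median. That of EEF1AKMT1 (5.65 h) and EEF1AKMT2 (6.29 h, and 3.81 h on its own total) fell slower. None of these 4 calls held after adjustment for the spike-in side. EEF2K, the kinase that switches off eEF2, had 3.92 h and did not pass. On its own total it had 2.87 h and was faster than the median (adjusted p = 0.000383).

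Most subunits of eIF3, the scaffold complex of initiation, had long-lived mRNAs. Labelled RNA of 11 of its 12 tested subunits fell slower than the median (median half-life 10.2 h), and EIF3A, the largest subunit, was the exception with 4.03 h (3.45 to 4.83; adjusted p = 0.113). EIF3K (chr19:38619082-38636955, plus strand) was labelled, from 0 to 12 h, at 15.7, 16.2, 15.99, 14.3, 14.9 and 11.3% in replicate 1 and at 16.6, 15.4, 16.3, 14.6, 12.5 and 11.3% in replicate 2. The libraries of 12 h were the lowest and did not overlap those of 0 h, and its half-life was 21.9 h (17.8 to 28.5). EIF3A went from 70.7 and 67.8% at 0 h to 5.81 and 5.02% at 12 h.

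Between these 2 lay EIF3H (14.5 h), EIF3G (11.5 h), EIF3E (11.1 h), EIF3I (10.3 h), EIF3M (10.2 h), EIF3F (10.1 h), EIF3D (9.09 h), EIF3J (6.12 h) and EIF3B (4.96 h). On their own totals EIF3E, EIF3I, EIF3H and EIF3G had 24.8, 20.6, 23.2 and 17.4 h, and EIF3D had 5.10 h. EIF3J is a loosely bound subunit, and EIF3A and EIF3B form the core on which the complex assembles. The call of EIF3B was lost on adjustment for the spike-in side (adjusted p = 0.423) and on its own total (3.94 h, adjusted p = 0.755). On its own total EIF3A was faster than the median (adjusted p = 0.00198). EIF3C had only a lower limit of 23.5 h, and shares reads with its near-identical copy EIF3CL. Labelled counts were 9.90% ± 1.92 (SD, n = 2) of EIF3C and 87.1% ± 8.21 of EIF3CL at 0 h, so the values of both are uncertain.

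Factors that load the small subunit and find the start codon spanned a range from 1.92 to 10.5 h. Of the 11 tested, labelled RNA of 7 fell slower and of 3 faster than the median. EIF1AD (chr11:65996545-66002176, minus strand), a protein with an eIF1A-like domain, was labelled, from 0 to 12 h, at 75.1, 70.3, 56.7, 23.6, 3.35 and 1.93% in replicate 1 and at 76.3, 70.2, 54.8, 25.1, 6.74 and 1.11% in replicate 2. No 2 neighbouring times overlapped, and the half-life was 1.92 h (1.60 to 2.39), with a slope 0.36 ± 0.030 log2 units per hour below the median (adjusted p = 7.07e-11). The true eIF1A gene EIF1AX had 6.76 h (5.95 to 7.84).

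EIF2S3 and EIF2S1, the gamma and alpha subunits of eIF2, had half-lives of 9.41 h (8.14 to 11.2) and 6.77 h (5.86 to 8.01), and their labelled RNA fell slower than the median. That of EIF2S2, the beta subunit, fell faster, with 3.95 h (3.49 to 4.56; adjusted p = 0.0132), a call that was lost with the spike-in side (adjusted p = 0.167). EIF5, which makes eIF2 hydrolyse its GTP at the start codon, had 4.30 h, the median of all genes. On its own total EIF5 had 6.08 h and was slower than the median (adjusted p = 1.39e-10). EIF1, which guards start codon choice, had 5.28 h (4.73 to 5.96) and was slower than the median (adjusted p = 3.91e-05; 0.0561 with the spike-in side). EIF2D, which can place an initiator tRNA without eIF2, had 10.5 h and EIF2A 5.23 h.

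Labelled RNA of EIF5B (chr2:99337353-99401326, plus strand), the GTPase that joins the subunits, showed how the scaling can set a half-life. Its labelled share went from 76.1 through 69.7, 58.9, 42.5 and 17.1 to 6.57% in replicate 1 and from 73.2 through 70.2, 59.0, 41.4 and 16.7 to 7.03% in replicate 2. Its labelled CPM fell only after 4 h, with means of 73.0, 76.2, 76.3, 76.4, 50.8 and 24.4 in time order. The half-life was 8.56 h (6.53 to 12.4), slower than the median (adjusted p = 2.59e-07), when scaled to the library. With its own total counts as the scale it was 3.44 h and faster than the median (adjusted p = 0.0129), and its total rose over the chase.

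**Figure D2:**
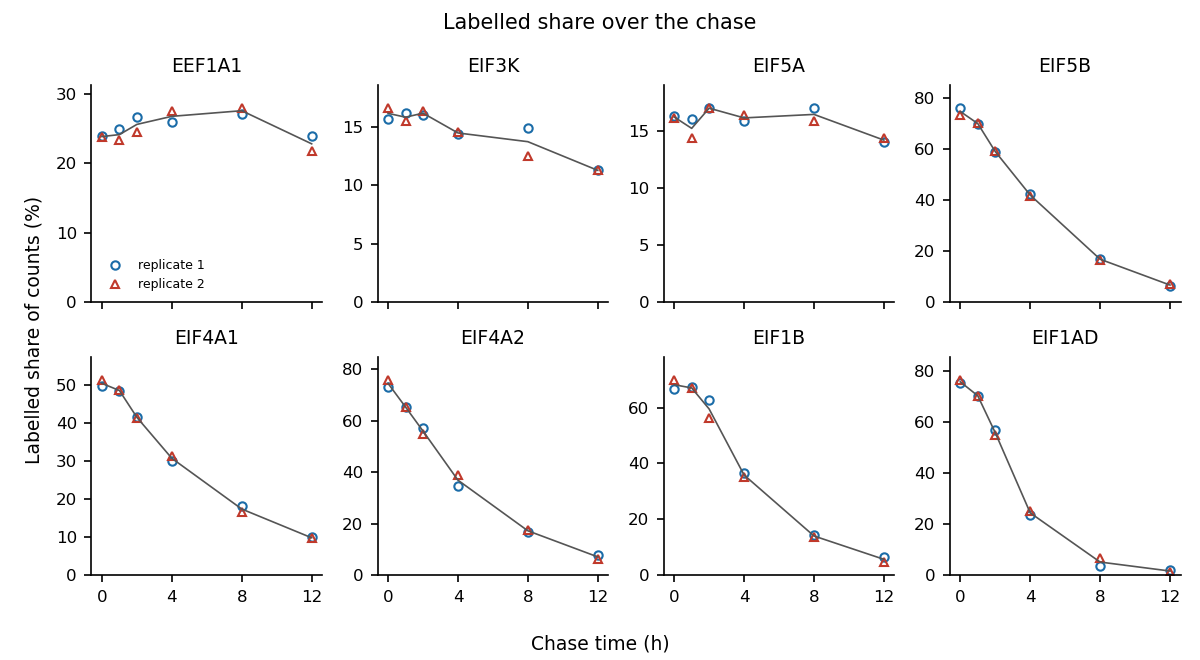
Labelled share of counts (%) against chase time (h) for 8 genes, with both replicates as points and their mean as a line. EEF1A1 and EIF5A stay nearly level over 12 h, while EIF1AD falls from 75.1 and 76.3% to 1.93 and 1.11%.

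Of the eIF2B subunits, labelled RNA of EIF2B3 (7.33 h) and EIF2B1 (6.23 h) fell slower than the median, and that of EIF2B2 (4.93 h), EIF2B5 (4.55 h) and EIF2B4 (4.37 h) did not pass. On its own total EIF2B3 had 3.80 h and did not pass (adjusted p = 0.941), while EIF2B5 and EIF2B2 had 3.09 and 3.15 h and were faster than the median (adjusted p = 0.00251 and 0.00697). Both tested eIF2 kinases passed as slower. EIF2AK2 (PKR), which senses double-stranded RNA, had 8.21 h (4.98 h on its own total) and EIF2AK1 (HRI), which senses lack of haem in erythroid cells, had 7.27 h. EIF2AK1 was 25.7 and 24.0% labelled at 0 h and 6.05 and 5.10% at 12 h.

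Among the 10 tested eIF4 genes, labelled RNA of 7 fell slower and that of EIF4A2 faster than the median. The longest half-lives were those of EIF4G2 (10.4 h), a scaffold that does not bind eIF4E, and of EIF4B (8.78 h), which helps the helicase eIF4A. On their own totals EIF4G2 had 5.31 h and EIF4B 6.01 h, and EIF4H, with 6.14 h, had 10.9 h, the longest of the group. The cap-binding EIF4E had 5.26 h, the scaffold EIF4G1 5.21 h and the helicase EIF4A1 4.55 h. Adjusted for the spike-in side, EIF4E, EIF4E2, EIF4G1 and EIF4A3 no longer passed, with adjusted p from 0.416 to 0.820. EIF4EBP2, a repressor of eIF4E under mTOR, had 10.1 h (8.502 to 12.5) and was slower. Its paralogue EIF4EBP1 had 5.47 h (4.31 to 7.48) and did not pass, but had 9.47 h on its own total, where it was slower (adjusted p = 2.42e-05).

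EIF5A, which carries the amino acid hypusine and keeps ribosomes from stalling, had 17.1 h (13.4 to 23.4). Its labelled share was 16.3, 16.1, 17.0, 15.9, 17.0 and 14.1% in time order in replicate 1 and 16.2, 14.4, 17.0, 16.4, 15.9 and 14.4% in replicate 2, with 12 h below 0 h in both. On its own total its loss was too flat for a half-life. The near-identical EIF5AL1 also had 17.1 h (35.2 h on its own total). Since reads may be shared between them, the 2 values cannot be counted as separate. EIF5AL1 was 33.7% ± 0.483 (SD, n = 2) labelled at 0 h against 16.2% ± 0.113 of EIF5A. At 12 h the shares were 27.0 and 14.2%, so the values of both are uncertain. EIF6, which keeps free large subunits from joining, had 6.85 h (5.88 to 8.20).

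The 9 genes listed as known TOP mRNAs (EEF1A1, EEF1B2, EEF1D, EEF1G, EEF2, EIF3E, EIF3F, EIF3H and EIF4B) had a median half-life of 11.5 h, from 8.78 h for EIF4B to 14.6 h for EEF1G. All 9 fell slower than the median (36.3% of all genes did), also when adjusted for the spike-in side (2398 of all 9652 genes did). The list was chosen with earlier results of these data known, so this count is no separate support. Of the other 49 tested genes 31 were slower and 6 faster, with a median of 5.65 h.

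Pairs of paralogues were compared directly, and not all of them share the same work. The ratio of their labelled counts was followed over the 12 chase libraries for 7 pairs, with a two-sided permutation test of the slope adjusted over the pairs. EIF1, EIF4A1 and EIF5A outlasted EIF1B, EIF4A2 and EIF5A2, also adjusted for the spike-in side (permutation adjusted p = 0.00126, 0.00432 and 0.00432) and in the ratio of labelled shares (2.33e-05 for each). The ratio of EIF1 to EIF1B was 15.5, 18.3, 18.0, 22.5, 40.4 and 56.1 in replicate 1, from 0 to 12 h, and 15.9, 18.7, 20.4, 28.3, 50.4 and 72.3 in replicate 2. From 4 h on, the libraries of each time lay above those of every earlier one. Its log2 rose by 0.17 ± 0.011 (SE) per hour (permutation adjusted p = 4.67e-05). EIF1B (chr3:40309684-40312424, plus strand) had a half-life of 2.88 h (2.55 to 3.29), faster than the median.

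The helicase EIF4A1 and its paralogue EIF4A2 (chr3:186783205-186789900, plus strand) also diverged. Their ratio of labelled counts was 1.55, 1.74, 1.83, 1.78, 3.01 and 3.74 in replicate 1, in time order, and 1.53, 1.87, 1.76, 2.20, 2.80 and 4.21 in replicate 2, with 8 and 12 h above all earlier times. The slope of its log2 was 0.11 ± 0.0073 per hour (permutation adjusted p = 4.67e-05). EIF4A2 had a half-life of 3.15 h (2.88 to 3.48) and was 73.3 and 75.7% labelled at 0 h and 7.70 and 6.33% at 12 h. Against EIF4A3, the form that sits in the exon junction complex, EIF4A1 fell faster, by −0.050 ± 0.015 per hour (permutation adjusted p = 0.0112). That slope was −0.027 over 2 to 12 h and no longer passed (permutation adjusted p = 0.270), nor did it adjusted for the spike-in side (−0.012, permutation adjusted p = 0.793). The ratio of their totals fell from 6.76 and 6.74 at 0 h to 2.99 and 3.30 at 12 h. The ratio of their labelled shares instead rose, by 0.054 per hour (permutation adjusted p = 0.000154), with own-total half-lives of 4.94 h for EIF4A1 and 4.03 h for EIF4A3.

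Reads of EIF5A may be shared with EIF5AL1, so its counts are uncertain. The ratio of EIF5A to EIF5A2 went from 3.76 and 3.76 at 0 h to 13.8 and 11.5 at 12 h, a slope of 0.15 ± 0.014 (permutation adjusted p = 4.67e-05). That of EIF4EBP1 to EIF4EBP2 fell from 0.142 and 0.159 to 0.0602 and 0.0964, a slope of −0.096 ± 0.016 (permutation adjusted p = 0.000805) that did not pass adjusted for the spike-in side (−0.080, permutation adjusted p = 0.242). The ratio of their totals fell alike, from 0.578 and 0.519 to 0.277 and 0.238. That of their labelled shares had a slope of 0.012 and did not pass (permutation adjusted p = 0.598). For EIF4G1 and EIF4G3 the ratio ran from 13.6 to 70.0 with overlapping times, and its slope of 0.10 ± 0.034 (permutation adjusted p = 0.0168) no longer passed over 2 to 12 h (0.0936), without replicate 1 of 12 h (0.0817) or adjusted for the spike-in side (slope 0.00043, permutation adjusted p = 0.995). For EIF4E and EIF4E2 the ratio stayed between 2.37 and 3.03, with a slope of 0.0077 ± 0.0066 that did not pass (permutation adjusted p = 0.269). In labelled shares EIF4E fell faster than EIF4E2, by −0.036 per hour (permutation adjusted p = 0.000154). EEF1A1 and EEF1A2 could not be compared, given the 59 labelled counts of EEF1A2.

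**Figure D3:**
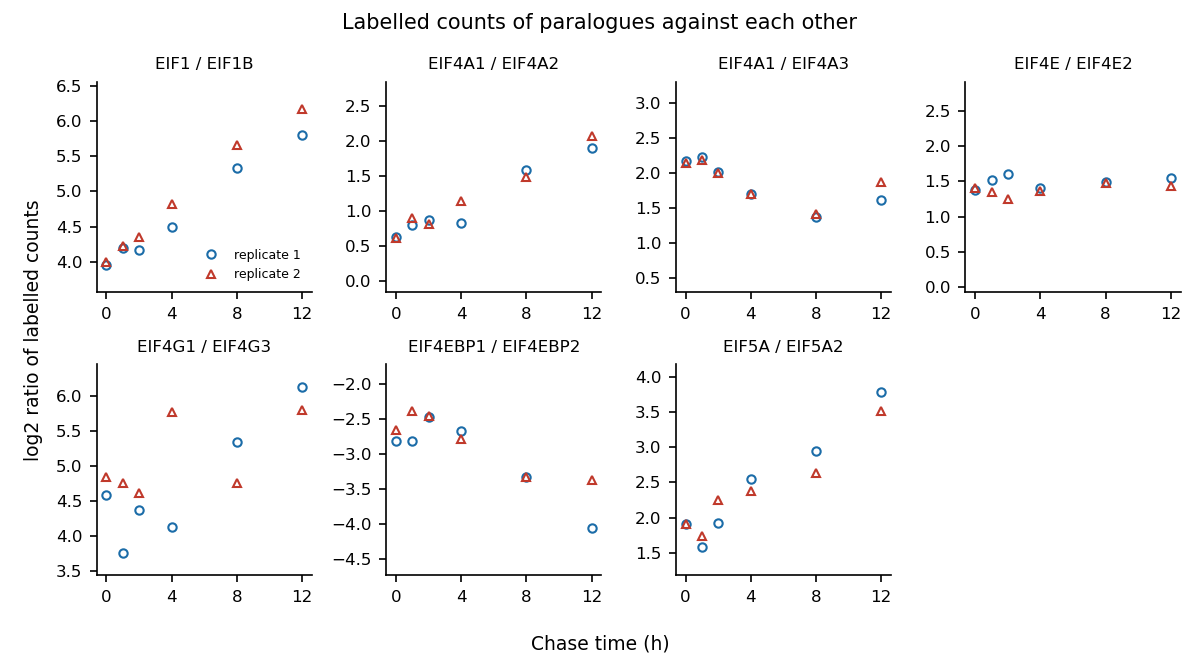
Log2 ratio of labelled counts of 7 paralogue pairs against chase time (h), 1 point per library, each panel spanning 3 log2 units. The ratio of EIF1 to EIF1B climbs in both replicates to 56.1 and 72.3 at 12 h, and that of EIF4E to EIF4E2 stays between 2.37 and 3.03.

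For 31 of the 58 genes (53.4%, against 33.7% of all genes) a curved loss fitted better than a straight one (quadratic term, edgeR), and for all 31 the loss was slower early than late. Among all genes that passed, 3204 of 3256 had this direction as well. The spike-in side changes in mid-chase, and the number of curved genes after adjustment for it is not given here. EIF5B (adjusted p = 1.08e-06), EIF4A3 (4.81e-05) and EIF2S2 (0.000129) had the smallest p-values. EIF4A3 held means of 50.3, 48.5 and 50.4 labelled CPM at 0, 1 and 2 h and then fell to 43.4, 27.0 and 11.6 at the later times. The mean labelled CPM was higher at 2 h than at 0 h for 23 genes (39.7%, against 24.0% of all genes). The single half-lives of these genes describe neither part of the chase alone, and over 2 to 12 h the curve passed for 4 genes. The share of all genes curved in that window is not given here.

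Total RNA of these genes was compared between times, which asks how their levels, labelled or not, moved after the wash. The contrasts below share the libraries of 0 h, so they are not independent of each other. At 1 h none of the 63 tested genes passed in either direction (edgeR), against 0.32% of all 16255 genes higher and 0.0369% lower. Of the 63, 4 had an unadjusted p under 0.05, against 7.69% of all genes, and DESeq2 also called 0.

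At 4 h, 16 genes were higher than at 0 h (16.7% of all genes were) and 12 lower (15.5% of all). Without replicate 1 of 0 h, 4 were lower. With spike-in totals as library sizes 18 were higher (19.2% of all genes were) and 3 lower (6.40% of all). Adjusted for the spike-in side 14 were higher (14.2% of all genes were) and 9 lower (12.9% of all). EIF1B, EIF3D, EIF3E, EIF4E, EIF4E3, EIF5 and EEF1A2 then lost their calls. EIF4ENIF1, which carries eIF4E into the nucleus, rose from 6.32 and 3.88 CPM to 13.3 and 12.0 CPM (log2 change 1.27 ± 0.24, adjusted p = 0.000155). EIF4G3 rose from 5.18 and 6.55 to 10.8 and 10.7 CPM (0.84 ± 0.20, 0.00159). EIF2AK3 (PERK), the eIF2 kinase of the endoplasmic reticulum, rose from 2.59 and 2.77 to 7.09 and 6.15 CPM (1.27 ± 0.27, 0.000686). These 3 genes are low. In each the 2 groups did not overlap, which for EIF4ENIF1 and EIF4G3 was a condition of being named. The share of all genes without overlap is not given here.

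EIF4EBP1 fell from 46.5 and 41.6 CPM at 0 h to 31.8 and 30.5 CPM by 4 h and further to 27.7 and 25.3 CPM by 12 h. EEF2KMT fell from 7.15 and 8.21 to 4.55 and 5.36 CPM at 4 h, and EEF1A2 from 7.88 and 7.43 to 5.24 and 4.31 CPM. The log2 changes at 4 h were −0.53 for EIF4EBP1, −0.67 for EEF2KMT and −0.71 for EEF1A2 (adjusted p = 0.000258, 0.0132 and 0.0117). EEF1A2 did not pass after adjustment for the spike-in side (adjusted p = 0.0820), and with spike-in sizes neither EEF2KMT (0.0841) nor EEF1A2 (0.0731) did. By 12 h EEF2KMT was higher than at 0 h, at 13.7 and 11.7 CPM (log2 0.67, adjusted p = 0.00268), a call that was lost adjusted for the spike-in side (adjusted p = 0.415).

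By 12 h, 28 of the 63 genes were higher than at 0 h (27% of all genes were) and 23 lower (29.1% of all), with a median log2 change of 0.11 against −0.057 for all genes. By role, of the 7 elongation factors 6 fell and none rose, while 4 of 5 eIF2B subunits, 3 of 4 eIF2 kinases and 4 of 5 elongation regulators rose and none fell. Of the 9 TOP mRNAs 8 fell, and EIF4B rose by 0.54. The start codon factors (3 higher, 5 lower of 11), eIF3 (6 and 5 of 13) and eIF4 (6 and 4 of 11) were mixed.

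Adjusted for the spike-in side, 18 of the 28 rises and 21 of the 23 falls still passed. All 6 elongation factors and 6 of the 8 TOP mRNAs still fell, and 3 of the 4 eIF2B subunits, 2 of the 3 kinases and 2 of the 4 regulators still rose. The calls lost were those of EIF2B4 (adjusted p = 0.340), EIF2AK3 (0.0868), EEF1AKMT1 (0.221), EEF2KMT (0.415), EIF2S1 (0.154), EIF4E (0.604) and EIF4EBP2 (0.102), and of 5 eIF3 genes given below. EIF2B1 passed then, with 0.44 (adjusted p = 0.00492). In all, 19 genes were higher (17.9% of all genes were) and 22 lower (19.2% of all).

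These directions hold relative to the other RNA of the library. With spike-in totals as library sizes the median log2 change of all genes was 0.36 in place of −0.057. On that scale 36 of the 63 genes were higher (40.4% of all genes were) and 7 lower (13.7% of all). All 28 rises still passed. Of the 23 falls 7 still passed and 10 were above 0, with log2 changes of 0.087 for EEF1D, 0.076 for EEF1G, 0.13 for EEF2, 0.19 for EIF4A1, 0.21 for EIF1AX, 0.21 for EIF3F, 0.17 for EIF3H, 0.14 for EIF3G, 0.088 for EIF5AL1 and 0.022 for EIF4E2. Of the 6 elongation factors that fell, 2 (EEF1A1 and EEF1A2) still did with spike-in sizes, and of the 8 TOP mRNAs 1 (EEF1A1).

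EIF5B rose the most. Its total was 96.2, 108, 123, 184, 291 and 357 CPM from 0 to 12 h in replicate 1 and 98.2, 109, 134, 178, 306 and 356 CPM in replicate 2, with 381 CPM without 4sU. Each time lay above the one before it without overlap. At 12 h it was 3.53-fold higher than at 0 h (log2 1.82 ± 0.069, adjusted p = 1.69e-17), and its log2 change was 1.83 after adjustment for the spike-in side.

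EIF2B5, the catalytic subunit of eIF2B, had 42.4, 46.7, 46.0, 57.1, 77.8 and 116 CPM from 0 to 12 h in replicate 1 and 48.04, 47.4, 54.2, 54.2, 79.0 and 105 CPM in replicate 2, with 96.5 CPM without 4sU. The libraries of 8 and 12 h lay above all earlier ones (log2 change at 12 h 1.23 ± 0.091, adjusted p = 7.87e-12). EIF2B3 rose by 1.31 ± 0.12 (4.84e-10), EIF2B2 by 1.09 and EIF2B4 by 0.44, while EIF2B1 was 0.18 higher and did not pass (adjusted p = 0.0645). EIF2AK1 rose from 56.5 and 57.3 to 93.8 and 91.8 CPM (log2 0.65). EIF4G2 rose from 582 and 568 to 1174 and 1128 CPM (0.94, with 0.91 under the spike-in side).

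The falls were led by EEF1A2, from 7.88 and 7.43 to 2.75 and 3.64 CPM (log2 −1.31 ± 0.23, adjusted p = 1.78e-05). EIF1AD fell from 67.5 and 70.2 to 30.2 and 33.5 CPM, by −1.17 ± 0.14, and by −0.46 after adjustment for the spike-in side (adjusted p = 0.0210). At 4 h its replicates, which lie on different sides, had 79.9 and 47.6 CPM. EIF5 (chr14:103333544-103345025, plus strand) had 431, 413, 419, 389, 292 and 235 CPM from 0 to 12 h in replicate 1 and 426, 409, 414, 379, 304 and 234 CPM in replicate 2, with 130 CPM without 4sU. From 4 h on, the libraries of each time lay below those of every earlier one (log2 change at 12 h −0.93 ± 0.062, adjusted p = 8.56e-13).

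EEF1A1 fell from 11926 and 11078 CPM at 0 h to 9892 and 8511 by 4 h, to 7259 and 6699 by 8 h, and to 6502 and 6321 CPM by 12 h (log2 −0.90 ± 0.062, adjusted p = 1.71e-12). EEF1B2 fell by 0.47, EEF1G by 0.34, EEF1D by 0.33 and EEF2 by 0.29. EEF1E1 had a log2 change of 0.0076 and did not pass. In the eIF4 group EIF4H, a cofactor of eIF4A, fell by 0.83, and EIF4A2 by 0.54.

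Within eIF3 the subunits parted. EIF3D, which can bind the cap of some mRNAs, rose by 0.90 ± 0.073 (adjusted p = 4.48e-11), EIF3B by 0.65, EIF3A by 0.24 and EIF3J and EIF3M by less than that, as did the uncertain copy EIF3CL by 0.92. EIF3E fell by 0.62, EIF3I by 0.55, EIF3G by 0.28, EIF3H by 0.25 and EIF3F by 0.21. With spike-in sizes none of these 5 falls passed, and EIF3E and EIF3I had −0.20 and −0.13 (adjusted p = 0.101 and 0.201). Adjusted for the spike-in side EIF3E had −0.19 (adjusted p = 0.201), and EIF3H (0.0939), EIF3J (0.0914), EIF3M (0.123) and EIF3CL (0.267) lost their calls too. EIF3K and EIF3C did not pass.

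**Figure D4:**
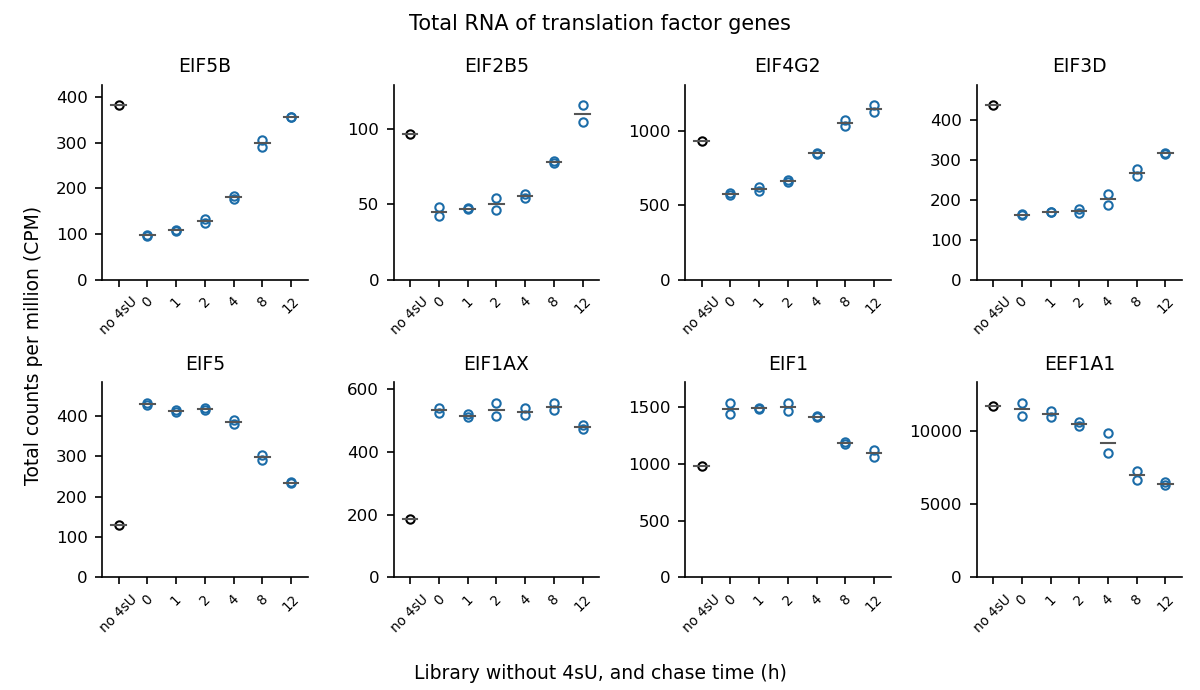
Total CPM of 8 genes in the library without 4sU (black) and at each chase time in hours (blue), 1 point per library with the group mean as a bar. EIF5B, EIF2B5, EIF4G2 and EIF3D rise over the chase, and EIF5, EIF1 and EEF1A1 fall, with EIF5B at 96.2 and 98.2 CPM at 0 h and 357 and 356 CPM at 12 h.

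The libraries of 0 h were also compared with the 1 library without 4sU, which was assumed to vary like the other groups. That library lies on the other spike-in side from both libraries of 0 h, so that the treatment and the side cannot be told apart. Adjustment for the side takes its size from the 2 libraries of 4 h alone, so a call kept after it does not part them. The p-values of this comparison rest on a single library without 4sU. There 16 of the 63 genes were higher at 0 h (33.5% of all genes were) and 26 lower (31.8% of all). With spike-in sizes, the median log2 difference of all genes moved from 0.063 to 0.54, and that of the 63 genes from −0.051 to 0.43. All 5 eIF2B subunits and all 3 eIF4E-binding genes were lower at 0 h, as were 3 of 5 elongation regulators. Adjusted for the spike-in side, 4 of the 5 eIF2B subunits (all but EIF2B4, adjusted p = 0.122) and the 3 regulators still passed. None of the eIF4E-binding genes did (adjusted p = 0.0963 for EIF4EBP1, 0.263 for EIF4EBP2 and 0.0730 for EIF4ENIF1). With spike-in sizes, EIF2B3 and EIF2B5, 2 of the regulators and none of the eIF4E-binding genes passed, and EIF4EBP1, EIF4EBP2 and EIF2B1 were above 0 (log2 0.13, 0.25 and 0.23). EIF2B2 (adjusted p = 0.146), EIF2B4 (0.659), EIF4ENIF1 (0.493) and EEF1AKMT3 (0.441) lost their calls there.

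EIF5B was 3.87-fold lower at 0 h than without 4sU (log2 −1.95 ± 0.078, adjusted p = 1.36e-17), with log2 −1.96 adjusted for the spike-in side and −1.47 with spike-in sizes. EEF2KMT had 26.4 CPM without 4sU and 7.15 and 8.21 CPM at 0 h (−1.76 ± 0.20). EIF2AK1 had 187 CPM without 4sU against 56.5 and 57.3 (−1.70 ± 0.091), and EIF3D 437 CPM against 162 and 164 (−1.40). The values of EIF2AK1 at 12 h, 93.8 and 91.8 CPM, and of EIF3D, 318 and 316 CPM, lay between those at 0 h and without 4sU.

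In the other direction, EIF5 had 130 CPM without 4sU and was 3.34-fold higher at 0 h (log2 1.74 ± 0.082, adjusted p = 3.45e-16). EIF1AX had 184 CPM without 4sU against 523 and 539 CPM at 0 h (1.55 ± 0.086) and still 472 and 485 CPM at 12 h. EIF2A had 20.8 CPM against 45.5 and 55.1 (1.29 ± 0.14), and EIF1 had 978 CPM against 1531 and 1434 (0.62). EIF1AD was higher by 0.78, but by 0.069 after adjustment for the spike-in side (adjusted p = 0.763). Of the 7 elongation factors, EEF1D (0.37, higher) and EEF1A2 (−1.16, lower) passed. EEF1A1 had 11711 CPM without 4sU and a log2 difference of −0.0048 (adjusted p = 0.959).

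**Figure D5:**
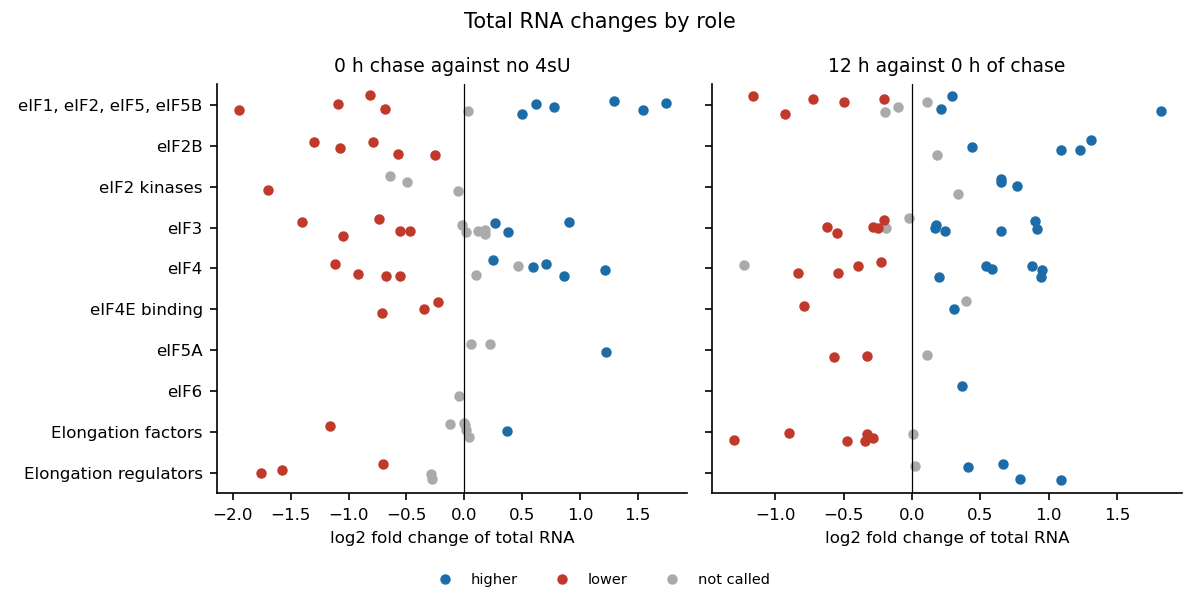
Log2 fold change of total RNA of the 63 tested genes by role, at 0 h against no 4sU (left) and at 12 h against 0 h (right), 1 point per gene, coloured where adjusted p is under 0.05. Both panels share the libraries of 0 h. The eIF2B genes lie left of 0 in the first and right of 0 in the second, and 6 of 7 elongation factors lie left of 0 at 12 h.

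What the mRNAs share was described from their annotation, with no test. Across the 58 genes the rank correlation (Spearman) of the half-life was 0.48 with mean CPM (0.31 across all genes) and −0.65 with the labelled share at 0 h (−0.42 across all). All these values come from the same libraries, and genes are not independent replicates. The median 3' UTR of the principal transcript was 592.5 bases, against 1032 bases for all tested coding genes.

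An ATTTA pentamer, searched on the transcript strand, was in the 3' UTR of 69.0% of the genes and of 69.2% of all tested coding genes. The median half-life was 6.19 h with it and 9.78 h without it, against 3.97 and 4.94 h for all. The pyrimidine tract shown above was found, on the gene's strand, in 19 of the 47 tested genes with a matched RefSeq promoter (40.4%), against 23.0% of the tested coding genes and 22.1% of 15843 coding promoters. Genes with the tract had a median half-life of 9.41 h and those without it 6.19 h, against 4.31 and 4.196 h across all coding genes. A match describes the letters at an annotated start and not the start used in these cells.

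Genes of translation outside the symbol rule, chosen as a list of 36, were set beside them. Of the 34 tested, labelled RNA of 15 fell slower and of 7 faster than the median, with a median half-life of 4.76 h. PABPC1, the poly(A)-binding protein, had 11.8 h, NACA and BTF3, which escort nascent chains, had 12.5 and 11.8 h, and DHPS, which makes hypusine on eIF5A, had 12.4 h. TUFM, the mitochondrial elongation factor, was the longest with 15.4 h (12.6 to 19.9). PPP1R15B and PPP1R15A, which recruit the phosphatase of eIF2, had 1.53 and 2.77 h, and PELO, which rescues stalled ribosomes, had 1.60 h, all faster than the median.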

How the data were processed

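The authors deposited raw counts per gene: all reads and nascent reads per human gene, and reads per Drosophila gene of the spike-in. Tools and builds listed in the submitters' processing notes were Trim Galore 0.6.5, bcl2fastq 2.17.1.14, bedtools, hg38 and dm6. For the aligner, counter, annotation, strandedness and the number of conversions that defines a nascent read, not given in the sources used here, nothing was assumed. Reads shared by near-identical copies or overlapping genes may therefore be split. Libraries were grouped by their titles. The genes and lists were chosen with earlier results of these data known.

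Decay was fitted by quasi-likelihood in edgeR 4.0.16 (R 4.3.3, two-sided) as the slope of labelled counts on hours over 12 libraries, offset by the TMM size of the total library and compared with the median slope. A gene needed a mean of 5 CPM and 100 labelled counts. Half-lives came from quasi-Poisson exponential fits with the labelled share without 4sU as background and 95% intervals (Python 3.11.15, scipy 1.17.1), and an upper bound over 48 h left only a lower limit. Totals were fitted with edgeR over 7 groups after filterByExpr. All p-values were Benjamini-Hochberg adjusted over all genes, with a threshold of 0.05. Pair ratios (pseudocount 0.5) used 100000 permutations, adjusted over 7 pairs, and within each spike-in side where adjusted for it. The fits were tested on simulated data.

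Full values were given for 25 genes set in the design, the 4 most and 4 least negative slopes that passed on 1 side in both series, and the 3 largest rises and falls per total contrast at a mean of 5 CPM or more without overlap of the groups. Further genes were named after their values were seen. Alternatives were spike-in sizes, each gene's own total, DESeq2 1.42.0, other filters and windows, the spike-in side, the replicate block and each library left out. Coordinates are GENCODE 29 gene spans (GRCh38), and start windows are RefSeq GRCh38.p14, with promoters matched for 53 genes.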

Additional observations from a re-analysis of the deposited data

How the results depend on the processing

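With the replicate number as a block, 40 genes fell slower and 6 faster than the median, the same counts as without it, and no block changed a count of calls by over 1.5 times. Replicate numbers did not pair the libraries: deviations of same-numbered libraries correlated between −0.17 and 0.46 over 15 pairs of times, above 0.1 in 4. Over 0 to 4 h alone, 26 genes were slower, 5 curved, and the median half-life was 10.5 h. Over 2 to 12 h it was 5.68 h, with 4 genes curved. For these windows, and for the own total and left-out libraries below, the shares of all genes called are not given here. Scaled to each gene's own total, 12 genes were faster and the median was 5.32 h. It was 8.05 h with spike-in sizes, 6.86 h when adjusted for the spike-in side (3 genes faster), 6.26 h with a minimum of 10 labelled counts and no CPM filter, 6.77 h with 500 labelled counts, and 6.18 to 6.94 h when each library was left out. In total RNA, spike-in sizes left 3 genes lower at 4 h and 7 by 12 h, and gave, for 0 h against no 4sU, 32 higher and 13 lower. Of all genes, 6.40% were lower at 4 h and 13.7% by 12 h. For 0 h against no 4sU, 46.4% of all were higher and 18.4% lower, close to the members. Leaving out each library gave 4 to 12 lower at 4 h, with 4 without replicate 1 of 0 h. Among the genes given full values, slope differences changed sign for EIF2B5 (−0.054 with its own total, −0.10 over 0 to 4 h), EIF2S2 (0.00054 over 0 to 4 h), EIF4A1 (−0.015 over 0 to 4 h) and EIF5 (0.10 with its own total, 0.0018 without the filter). Over all 58 genes, 5 changed sign on their own total, with EIF5B (−0.027), EIF2B2 (−0.052) and EIF2B4 (−0.012), and 3 adjusted for the spike-in side, EIF2B2 (−0.022), EIF2B4 (−0.015) and EIF4G3 (0.073). With spike-in sizes, changes at 12 h turned to 0.087 for EEF1D, 0.076 for EEF1G, 0.13 for EEF2 and 0.19 for EIF4A1, and at 0 h against no 4sU to 0.13 for EIF4EBP1 and 0.25 for EIF4EBP2. Pair slopes over 2 to 12 h, with each library left out, adjusted for the spike-in side and in labelled shares were added after seeing the data. Of these, 96 kept direction and call, 6 lost the call and 3 turned, all in labelled shares: EIF4A1 to EIF4A3 (0.054), EIF4E to EIF4E2 (−0.036) and EIF4EBP1 to EIF4EBP2 (0.012). The causes were not tested. Depth limits the genes under about 10 CPM, where both groups of a contrast hold few reads.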

Other observations

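Several pseudogenes that the symbol rule leaves out took many counts beside their parent genes, with a different labelled share. EIF2S2P4 had 60632 counts in all against 70353 of EIF2S2, and it was 63.6% ± 0.563 (SD, n = 2) labelled at 0 h against 69.2% ± 1.136. Its half-life was 3.36 h, so that both gene IDs had short values. EIF5P1 had 45680 counts against 55455 of EIF5, with 60.1% ± 1.23 labelled against 76.2% ± 1.66 at 0 h and 11.6% against 18.1% at 12 h. EEF1DP1 had 11270 counts and was 20.5% ± 1.28 labelled at 0 h against 9.14% ± 0.445 of EEF1D, while EEF1DP5, with 23227 counts, was 8.63% ± 0.613 labelled. EIF1AXP1 had 6972 counts and was 34.9% ± 1.69 labelled against 66.5% ± 3.48 of EIF1AX. EIF3LP3 had 2097 counts in all, while its parent EIF3L, a subunit of eIF3, had 17. How the reads were divided between copies was not tested, and the levels and shares of these parent genes carry that uncertainty. The left-out IDs together held 4.58% of the counts of both sets.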
